A study of Mus musculus with 6 samples.

Results

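Cd22, Cd72, Cd37, Ms4a1, Cr2, Fcer2a, Blk, Fcrla, Tnfrsf13c and Cd40 encode surface receptors and signalling proteins of B cells, most of them best known from B cells that have left the earliest stages of development. These 10 genes were chosen by name, and all 10 were represented among the 17097 genes with a named probe set. They were read by 17 of the 45037 probe sets that remained after array controls were set aside. For each gene the probe set of highest mean signal (6 arrays) gave the main value, and any other probe set is given beside it. Expression was compared between 3 arrays of pro-B cells from wild-type mice and 3 arrays of pro-B cells from mice labelled HDAC7 deficient, with the question of what happens to these genes when the class IIa histone deacetylase HDAC7 is missing. The cells of both groups were sorted as B220+CD43+IgM-, and the design text calls the mutant mice conditional for HDAC7. The strain, age and sex of the mice, the Cre driver and whether animals were pooled are not given in the labels or design text used here. The labels call the arrays biological triplicates. Values are the authors' log2 signals per probe set, so 1 unit is a 2-fold step. Signals of different probe sets are not on a common scale, so levels of single genes are not set against each other. Positions against the array median, groupings of genes by signal and means over marker lists carry this limit.

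B cells mature from pro-B cells, which are still assembling their immunoglobulin genes, through pre-B and immature stages to resting B cells of spleen and lymph node. A functional B cell receptor appears on this path after the pro-B stage, and a set of surface proteins raises or lowers its signal. CD22 and CD72 are inhibitory coreceptors that recruit the phosphatase SHP-1, while complement receptor 2 (CD21, from Cr2) is part of an activating coreceptor. CD23 (Fcer2a), CD21 and CD20 (Ms4a1) are classical markers of later stages. BAFF receptor (Tnfrsf13c) and CD40 carry survival and T cell help signals to NF-kB.

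The arrays differed in ways that the groups do not explain. Wild-type replicate 3 had correlations of 0.70 to 0.82 with the other 5 arrays over all probe sets and an interquartile range of 1.72, against 2.27 to 2.93 on the others. For Actb the control probes at the 3' end exceeded those at mid-transcript by 1.69 on this array and by 0.16 to 0.26 elsewhere. Among the 4274 genes of highest mean signal it lay below the mean of the other wild-type arrays by a median difference of -1.36, while among the 8548 genes dimmest on those 2 arrays the median was 0.52. Replicate 3 of wild type, with HDAC7-deficient replicates 2 and 3, also had higher Xist (8.51 to 11.40, against 4.87 to 5.38) and higher hybridisation spike-in signals (means of 9.99 to 10.78, against 8.64 to 9.17) than the other 3 arrays, a division that the labels do not give. The differences of the members' main probe sets are therefore given with and without wild-type replicate 3. Hdac7 was 9.06, 9.48 and 7.31 in wild type and 9.95, 9.54 and 9.27 on the arrays labelled HDAC7 deficient. Hdac7 was thus not lower on the latter, and whether its probes lie in the deleted part is not known here, so it does not check the labels.

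The cells carried pro-B transcripts. Vpreb1, a part of the surrogate light chain, was between 9.97 and 11.53 over the 6 arrays, Dntt, the terminal transferase, between 7.37 and 10.64, the commitment factor Pax5 between 7.78 and 10.28, and the recombinase gene Rag1 between 7.59 and 10.14. The lowest value of each was that of wild-type replicate 3. On the other 5 arrays Vpreb1 was at least 10.73, Dntt 9.84, Pax5 9.18 and Rag1 8.14. Ebf1 was instead highest on wild-type replicate 3, at 10.48 against 10.15 to 10.47 on the others. Of 17 measured pro-B and early B lineage genes, 13 were lowest and 2 highest on that array. Over all genes the shares were 37.8% and 45.8%. Ptprc, which encodes B220, was 10.45 to 10.86 over the 6 arrays and Spn, which encodes CD43, 6.89 to 8.13. The granule genes Mpo (9.92 to 11.98) and Elane (7.65 to 11.50) were read in both groups as well, again lowest on wild-type replicate 3. Other myeloid genes were not lowest there. S100a8 was highest on that array, at 11.82 against 10.79 to 11.33 on the others. Lyz2, at 10.96, lay within the 10.75 to 11.31 of the others. In such bulk samples, fewer cells of a type and less RNA per cell cannot be told apart.

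No member differed between the groups beyond the spread of the arrays. In limma 0 of 10 passed an adjusted p of 0.05, as did 0 of 17097 genes and 0 of 45037 probe sets, so that 0% were called at either level. At an unadjusted p under 0.05 there were 0 members, against 2165 of all genes, or 12.7%. In all 10 members the values of the groups overlapped, whereas they did not overlap in 26.3% of genes. Of the 10 members 5 were higher and 5 lower on the HDAC7-deficient arrays, with a median log2 difference of 0.12, against 48.0% higher and a median of -0.03 over all genes. Limma's adjusted p-values ran from 0.435 to 0.955, and two-sided exact permutation tests over the arrays gave p from 0.3 to 1 (the smallest that 3 against 3 can give is 0.1).

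Leaving out wild-type replicate 3, again 0 members and 0 of 17097 genes passed (0% called). Of the 10 members 6 were then higher, against 43.2% of genes, with a median of 0.09, against -0.05 over all genes. At an unadjusted p under 0.05 there were 2 members, Fcrla and Ms4a1, beside 14% of all genes. A limma fit with array quality weights called 4 members, beside 49.4% of genes: Cd22 (0.58), Ms4a1 (2.33), Fcer2a (0.61) and Cd40 (-0.37). That fit gave wild-type replicate 1 a weight of 8.68 and the other wild-type replicates 0.47 and 0.07, and thus rests mostly on a single wild-type array.

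**Figure D1:**
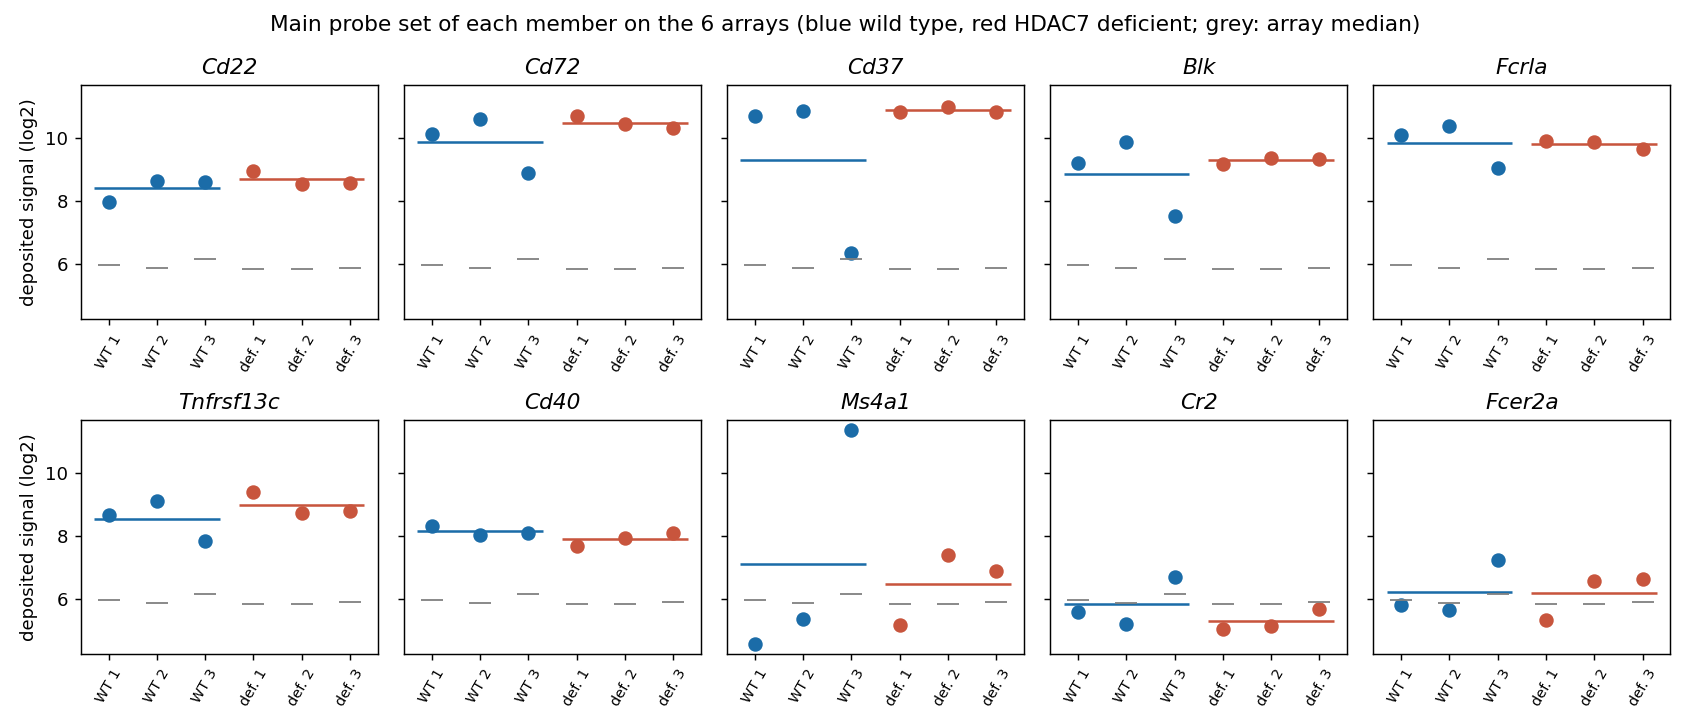
Deposited log2 signal (vertical axis) of the main probe set of each of the 10 members on wild-type (WT, blue) and HDAC7-deficient (def., red) replicates 1 to 3. Points are arrays, coloured lines are group means and grey dashes are the median of all probe sets on that array. Ms4a1 on wild-type replicate 3, at 11.35, and Cd37 on the same array, at 6.34, stand far from the other 5 arrays in opposite directions.

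The tetraspanin gene Cd37 and the CD20 gene Ms4a1 showed the widest spread. Ms4a1 (1450912_PM_at) read 4.57, 5.35 and 11.35 in wild type and 5.15, 7.40 and 6.87 in HDAC7 deficient. It was low on HDAC7-deficient replicate 1 and on wild-type replicates 1 and 2, intermediate on the other HDAC7-deficient arrays, and high on wild-type replicate 3 alone, 3.96 above the next highest array. The difference of -0.62 ± 1.72 (SE, 95% interval -4.68 to 3.44, limma adjusted p = 0.808) turned to 1.51 ± 0.59 without that array, with a limma adjusted p of 0.331. CD20 is a membrane protein of the B cell surface that takes part in calcium entry. Its other probe set (1423226_PM_at), annotated with the same accession, read 5.81, 6.002 and 6.84 in wild type and 5.68, 6.75 and 6.24 in HDAC7 deficient. The same 3 arrays were highest on both, in the same order, but the excess of wild-type replicate 3 over the mean of the other wild-type arrays was 6.39 on the brighter probe set and 0.93 on the other.

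Cd37 (1419206_PM_at) read 10.69, 10.88 and 6.34 in wild type and 10.82, 10.998 and 10.83 in HDAC7 deficient. CD37 is a tetraspanin that organises receptors in the membrane of B cells. Apart from wild-type replicate 3 its values spanned 10.69 to 10.998, and that array lay -4.36 from the lowest of the others. The difference of 1.58 ± 1.16 (95% interval -1.16 to 4.32, limma adjusted p = 0.435) was 0.10 ± 0.10 without wild-type replicate 3. The interval without that array, -0.14 to 0.34, is the narrowest of the 10 in that fit. The other probe set (1425736_PM_at) read 7.76, 8.24 and 6.08 in wild type and 8.89, 8.51 and 8.07 in HDAC7 deficient, again lowest on wild-type replicate 3, with a difference of 1.13 ± 0.58, or 0.49 ± 0.29 without that array.

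The inhibitory coreceptor genes varied less. Cd22 (1419768_PM_at), a sialic acid binding receptor, read 7.98, 8.65 and 8.60 in wild type and 8.95, 8.53 and 8.59 in HDAC7 deficient. Wild-type replicate 1 was lowest and HDAC7-deficient replicate 1 highest, and the rest lay between them. The difference was 0.28 ± 0.32 (95% interval -0.48 to 1.05, limma adjusted p = 0.562), or 0.38 ± 0.26 without wild-type replicate 3, and it was -0.24 after repeated quantile normalization. Wild-type replicate 3 lay within the range of the other arrays on this probe set, but on the dimmer one (1419769_PM_at) it was lowest, at 5.62 against 6.56 to 7.53 elsewhere. That probe set had a difference of 0.89 ± 0.43, or 0.45 ± 0.28 without the array.

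Cd72 (1426112_PM_a_at) read 10.14, 10.60 and 8.88 in wild type and 10.70, 10.45 and 10.32 in HDAC7 deficient. CD72 is a C-type lectin that binds CD100. Its group means were 9.87 ± 0.89 and 10.49 ± 0.20 (SD, n = 3 each), and the wild-type SD came mostly from replicate 3. The difference was 0.62 ± 0.48 (95% interval -0.51 to 1.75, limma adjusted p = 0.447), and 0.12 ± 0.17 without that array.

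Cr2 and Fcer2a encode CD21 and CD23, which mark later B cells. The main probe set of Cr2 exceeded the array median on 1 of the 6 arrays, and that of Fcer2a on 3. Cr2 (1425289_PM_a_at) read 5.59, 5.18 and 6.69 in wild type and 5.03, 5.13 and 5.68 in HDAC7 deficient. It exceeded the array's median signal, which was 5.83 to 6.15, on wild-type replicate 3 alone. The difference was -0.54 ± 0.40 (95% interval -1.49 to 0.41, limma adjusted p = 0.438), or -0.10 ± 0.23 without that array.

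Fcer2a (1422122_PM_at), the low-affinity IgE receptor, read 5.79, 5.65 and 7.24 in wild type and 5.33, 6.57 and 6.62 in HDAC7 deficient. The 3 arrays on which it exceeded the array median were HDAC7-deficient replicates 2 and 3 and wild-type replicate 3, which were also the 3 highest for Ms4a1. The groups had almost the same mean, 6.23 ± 0.88 and 6.17 ± 0.73 (SD, n = 3 each), a difference of -0.06 ± 0.53 (95% interval -1.31 to 1.20, limma adjusted p = 0.947). Without wild-type replicate 3 it was 0.45 ± 0.37, and centring the arrays on their medians gave 0.08. The dimmer probe set (1451713_PM_a_at) read 4.67, 4.63 and 4.84 in wild type and 4.49, 5.18 and 5.38 in HDAC7 deficient, below the array median on every array. Its highest values were on the same 3 arrays.

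Among the signalling genes inside the cell, Blk encodes a SRC family kinase that acts below the pre-B and B cell receptors. Blk (1422775_PM_at) read 9.21, 9.87 and 7.53 in wild type and 9.17, 9.37 and 9.35 in HDAC7 deficient. Wild-type replicates 2 and 3 were the highest and the lowest array, so the groups overlapped in full. The difference of 0.43 ± 0.59 (95% interval -0.98 to 1.83, limma adjusted p = 0.628) became -0.24 ± 0.22 without wild-type replicate 3.

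Fcrla encodes an Fc receptor-like protein kept inside B cells. Its main probe set (1425802_PM_a_at) read 10.10, 10.39 and 9.05 in wild type and 9.90, 9.87 and 9.65 in HDAC7 deficient. The difference was -0.04 ± 0.41 (95% interval -1.02 to 0.94, limma adjusted p = 0.955). Wild-type replicates 1 and 2 lay above the 3 HDAC7-deficient arrays and wild-type replicate 3 below them, so that leaving out the latter gave -0.44 ± 0.15 (95% interval -0.78 to -0.09, unadjusted for the number of genes; limma adjusted p = 0.294). The other probe sets read 9.66, 10.03 and 9.45 against 9.66, 9.46 and 8.90 (1419908_PM_at), and 8.65, 9.03 and 8.26 against 8.77, 8.04 and 7.64 (1419907_PM_s_at). Both were lowest on HDAC7-deficient replicate 3, and their differences were -0.37 ± 0.34 and -0.50 ± 0.39, or -0.50 ± 0.25 and -0.69 ± 0.34 without wild-type replicate 3. The 3 probe sets were thus lower on the HDAC7-deficient arrays in both fits, and none passed over all probe sets (limma adjusted p of 0.451 to 0.958, and 0.261 to 0.375 without that array).

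The NF-kB-linked receptors of the TNF receptor family differed little. Tnfrsf13c (1419307_PM_at), the BAFF receptor gene, read 8.65, 9.10 and 7.83 in wild type and 9.38, 8.73 and 8.78 in HDAC7 deficient. HDAC7-deficient replicate 1 was highest and wild-type replicate 3 lowest, with a difference of 0.44 ± 0.42 (95% interval -0.55 to 1.42, limma adjusted p = 0.504), or 0.09 ± 0.26 without the latter and -0.03 after repeated quantile normalization. Cd40 (1439221_PM_s_at) read 8.31, 8.02 and 8.09 in wild type and 7.69, 7.93 and 8.10 in HDAC7 deficient. Its 6 values spanned 0.62, the narrowest range of the 10 main probe sets, and its difference of -0.23 ± 0.27 (95% interval -0.88 to 0.41, limma adjusted p = 0.569) was -0.26 ± 0.23 without wild-type replicate 3. The other Cd40 probe set (1449473_PM_s_at) read 7.86, 7.73 and 8.40 against 7.50, 7.75 and 8.05, with a difference of -0.23 ± 0.31, or -0.03 ± 0.24 without that array.

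**Figure D2:**
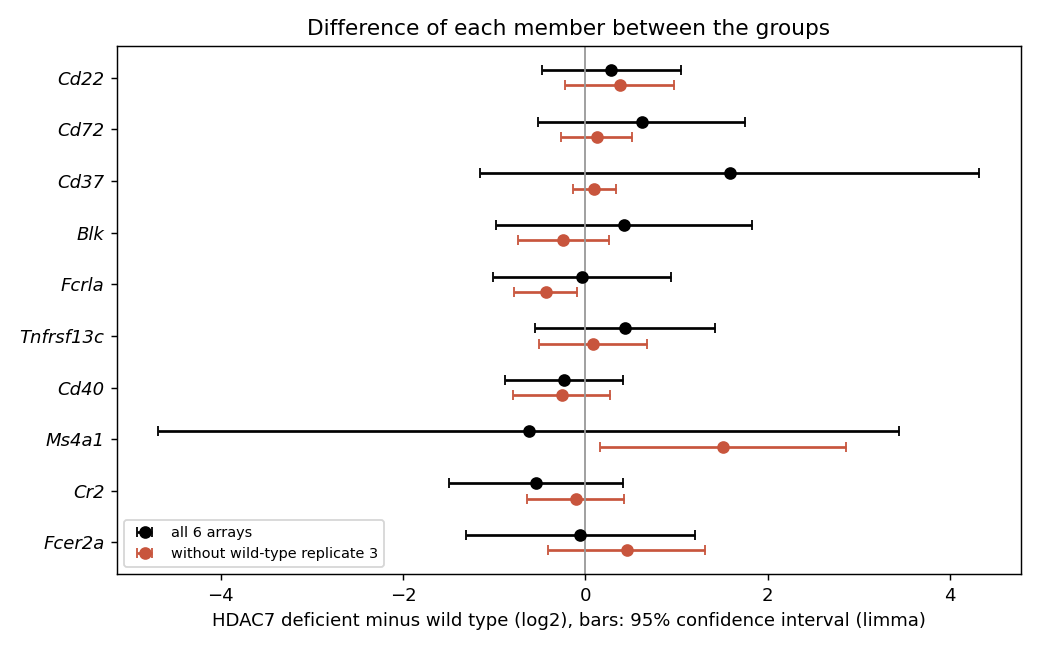
HDAC7 deficient minus wild type (log2, horizontal axis) for each member in limma, with all 6 arrays (black) and without wild-type replicate 3 (red). Points are differences and bars are 95% confidence intervals; the intervals of all 10 members include 0 with all arrays, Ms4a1 has the widest (-4.68 to 3.44), and without that array those of Fcrla and Ms4a1 exclude 0 before adjustment.

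**Figure D3:**
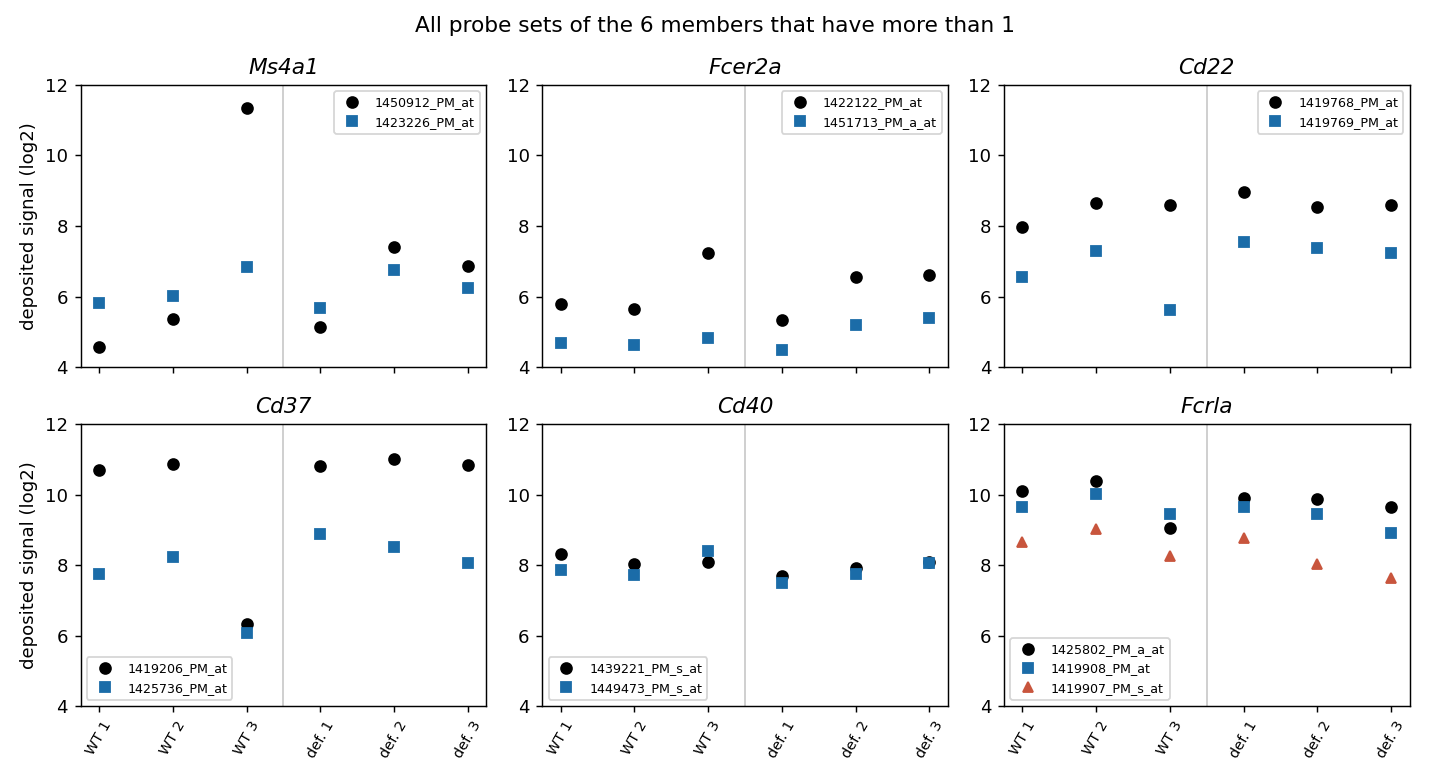
Deposited log2 signal (vertical axis) of every probe set of the 6 members that have more than 1, on wild-type (WT) and HDAC7-deficient (def.) replicates 1 to 3. Marker shapes are probe sets; both Cd37 probe sets are lowest on wild-type replicate 3, whereas Ms4a1 on wild-type replicate 3 read 11.35 on 1 probe set and 6.84 on the other.

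Wild-type replicate 3 divided the members. It lay above the other 5 arrays for 3 members (Ms4a1, Cr2 and Fcer2a), below them for 5 (Cd37, Blk, Cd72, Fcrla and Tnfrsf13c) and within their range for Cd22 and Cd40. Over all genes it was above in 45.8% and below in 37.8%. Measured against the mean of wild-type replicates 1 and 2, Ms4a1 had an excess of 6.39 and ranked 1 of 17097 genes; the next gene, Btbd35f21, had 4.65. Fcer2a followed among the members with 1.52 and Cr2 with 1.31, at percentiles 97.0 and 94.8 of all genes and 95.4 and 91.6 of the 8548 genes dimmest on wild-type replicates 1 and 2. At the other end, Cd37 lay at -4.45, rank 17069, with Blk at -2.01, Cd72 at -1.49, Fcrla at -1.20 and Tnfrsf13c at -1.04, while Cd40 lay at -0.08 and Cd22 at 0.28. This array also had the narrowest signal range and the 3' excess of Actb given above, and their part in these values was not tested.

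**Figure D4:**
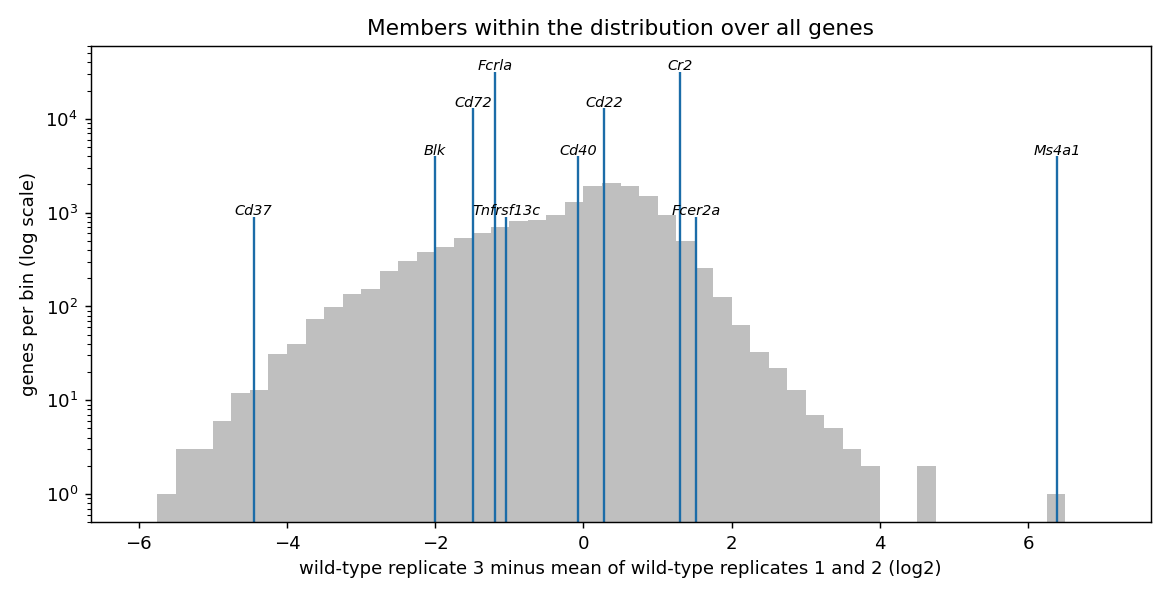
Number of genes per bin (vertical axis, log scale) by the log2 difference between wild-type replicate 3 and the mean of wild-type replicates 1 and 2 (horizontal axis), over 17097 genes, with the 10 members as blue lines. Line heights only separate the names; Ms4a1, at 6.39, forms the right end of the distribution and Cd37, at -4.45, lies near its left end.

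The HDAC7-deficient arrays also differed among themselves in Ms4a1 and Fcer2a. HDAC7-deficient replicates 2 and 3 lay above replicate 1 by a mean of 1.99 for Ms4a1 (rank 17 of 17097 genes) and 1.27 for Fcer2a (rank 80). Both of those arrays belong to the Xist-high side of the division, and the labels do not say what it stands for. Tnfrsf13c ran the other way with -0.63, Cd22 with -0.39 and Cd72 with -0.32, and Cd37 differed by 0.09. Within the 3 Xist-low arrays, where HDAC7-deficient replicate 1 is compared with wild-type replicates 1 and 2, the differences were small: 0.64 for Cd22, 0.51 for Tnfrsf13c, 0.34 for Cd72, 0.19 for Ms4a1 and 0.04 for Cd37. They were -0.48 for Cd40, -0.39 for Fcer2a, -0.37 for Blk, -0.35 for Cr2 and -0.34 for Fcrla, and no member reached a 2-fold difference there. The Xist-high side holds a single wild-type array, replicate 3, and the differences there spanned -4.22 for Ms4a1 to 4.58 for Cd37. The sign was the same on both sides for 6 of 10 members, against 79.6% of all genes.

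The upstream sequences of Cr2 and Fcer2a, high together on wild-type replicate 3, and of Cd37 and Cd72, low together on it, are shown for reference. RefSeq promoter entries of build GRCm38.p6 matched 7 of the 10 members by symbol; Ms4a1, Blk and Cd40 had none. Each line gives the 250 bases before the transcription start, 5′ to 3′ on the gene's strand, using for Fcer2a the farthest upstream of its listed starts. Capitals mark matches on either strand to the E2A E-box (CAGGTG or CAGCTG), the PU.1 box (GAGGAA), the octamer motif (ATGCAAAT), the EBF1 motif (TCCC and GGGA with 2 bases between them) and the MEF2 motif; MEF2 proteins are known partners of class IIa deacetylases.
Cr2 chr1:195176720-195176969, minus strand: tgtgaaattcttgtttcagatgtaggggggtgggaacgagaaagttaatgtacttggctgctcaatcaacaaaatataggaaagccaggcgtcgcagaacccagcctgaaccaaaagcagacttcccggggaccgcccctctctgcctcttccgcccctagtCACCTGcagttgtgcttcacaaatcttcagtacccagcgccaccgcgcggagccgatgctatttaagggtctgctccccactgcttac
Fcer2a chr8:3694175-3694424, minus strand: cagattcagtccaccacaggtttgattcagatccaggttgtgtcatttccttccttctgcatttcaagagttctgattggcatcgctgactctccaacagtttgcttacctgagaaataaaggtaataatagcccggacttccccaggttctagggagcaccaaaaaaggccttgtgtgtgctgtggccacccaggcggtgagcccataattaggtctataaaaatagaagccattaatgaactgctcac
Cd37 chr7:45238840-45239089, minus strand: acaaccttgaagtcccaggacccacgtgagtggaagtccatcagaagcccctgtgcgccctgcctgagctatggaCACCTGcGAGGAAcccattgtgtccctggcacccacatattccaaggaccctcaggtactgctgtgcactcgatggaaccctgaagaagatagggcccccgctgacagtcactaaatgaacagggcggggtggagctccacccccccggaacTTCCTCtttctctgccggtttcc
Cd72 chr4:43454627-43454876, minus strand: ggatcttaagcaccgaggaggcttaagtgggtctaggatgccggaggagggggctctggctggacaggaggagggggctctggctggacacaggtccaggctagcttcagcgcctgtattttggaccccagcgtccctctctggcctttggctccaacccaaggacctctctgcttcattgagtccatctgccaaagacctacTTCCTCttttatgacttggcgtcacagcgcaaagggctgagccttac
Cr2 held an E-box at -88 from the start, Cd37 an E-box at -175 and PU.1 boxes at -168 and -23, and Cd72 a PU.1 box at -47, while no motif searched was found in these bases of Fcer2a. Of the other listed starts of Fcer2a, the next downstream held 3 E-boxes in its 250 bases, and the last held no motif searched. The counts that follow use the farthest upstream start of Fcer2a alone. Over the 7 members, 5 windows held an E-box, 3 a PU.1 box, 1 an EBF1 motif (Cd22), and none an octamer or a MEF2 motif. Among the 27025 promoters of the table the shares were 27.4%, 23.1%, 0.788%, 1.61% and 3.01% in that order. Cr2, highest on wild-type replicate 3, and Cd37, lowest on it, both held an E-box. Any part of the motifs in these values was not tested.

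The genes that act with the members were counted in the same way, beside 48.0% of all genes higher on the HDAC7-deficient arrays, or 43.2% without wild-type replicate 3. The lists were not tested against each other or against the members. Of 22 measured genes of B cell receptor and coreceptor signalling, 21 were higher, with a median of 0.65, and 0 passed. Wild-type replicate 3 was the lowest array for 19 of these 22, and without it 18 were higher with a median of 0.14. The smallest p-values were those of Malt1, a paracaspase that links the receptor to NF-kB (1.20 ± 0.31, limma adjusted p = 0.377), and of the inhibitory receptors Pirb (0.78 ± 0.37, or 0.47 ± 0.26 without wild-type replicate 3) and Fcgr2b (0.65 ± 0.34, or 0.42 ± 0.27). Malt1 read 7.84, 8.22 and 7.59 in wild type and 8.90, 9.05 and 9.29 in HDAC7 deficient, and without wild-type replicate 3 its difference was 1.05 ± 0.22. Its groups did not overlap, as in 3 of the 22 genes, beside 26.3% of all genes.

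Of 18 genes of the BAFF and CD40 pathway 16 were higher, with a median of 0.64, and again 16 with a median of 0.40 without wild-type replicate 3, and 0 passed in either fit. The NF-kB subunit gene Rel read 5.84, 6.83 and 5.49 in wild type and 7.18, 7.74 and 8.05 in HDAC7 deficient, a difference of 1.60 ± 0.41, or 1.32 ± 0.36 without that array. Nfkbia, the NF-kB inhibitor that NF-kB itself induces, differed by 1.36 ± 0.46, or 0.92 ± 0.22. Tnfrsf17, which encodes the plasma cell receptor BCMA, differed by -0.86 ± 0.25, or -0.64 ± 0.19. Limma adjusted p was 0.377 for each of these 3 genes with all arrays. Their groups did not overlap, which held for 5 of the 18 genes of the list, beside 26.3% of all genes.

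Of 23 other genes of transitional and mature B cells 16 were higher, with a median of 0.30, and 17, again with a median of 0.30, without wild-type replicate 3, and 0 passed in either fit. Their smallest p-values were those of the migration genes Klf2 (2.17 ± 0.57), Gpr183 (1.63 ± 0.42) and S1pr1 (0.98 ± 0.27), each with a limma adjusted p of 0.377. Gpr183 and S1pr1 differed by 1.51 ± 0.39 and 0.86 ± 0.24 without wild-type replicate 3. Klf2, a factor that drives S1pr1, read 7.81, 8.35 and 6.40 in wild type and 9.06, 10.17 and 9.83 in HDAC7 deficient, and differed by 1.61 ± 0.33 without wild-type replicate 3. Of 17 pro-B and early B lineage genes 12 were higher, with a median of 0.26, or 7 with a median of -0.09 without that array, and 0 passed in either fit. The groups did not overlap in 9 of the 23 later genes and in 0 of the 17 early ones, beside 26.3% of all genes.

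Markers of mature B cells other than the members were set beside them, and their part in the values of Ms4a1, Fcer2a and Cr2 was not tested. Of 10 such markers 8 were measured, and their mean signal was 6.45 to 6.61 on the wild-type arrays and 6.53 to 7.01 on the HDAC7-deficient arrays, with 6.61 on wild-type replicate 3. Of the 8, 4 were higher in HDAC7 deficient, with a median difference of 0.08, or 0.25 without wild-type replicate 3. That array was the highest of the 6 for 2 of the 8 markers and the lowest for 2. Cd83, an activation marker, read 6.23, 6.16 and 7.14 in wild type and 5.81, 6.54 and 6.93 in HDAC7 deficient, so that the 3 arrays highest for Ms4a1 and Fcer2a were also highest here. The adaptor gene Bank1, from the receptor signalling list, had the same 3 arrays highest. It read 4.90, 4.93 and 6.86 in wild type and 5.001, 5.58 and 5.53 in HDAC7 deficient. Its excess on wild-type replicate 3 over the mean of the other wild-type arrays was 1.94, and that of Cd83 was 0.95. Both genes were singled out after their values were seen. Of the 22 measured genes of the receptor signalling list, wild-type replicate 3 was the highest array for 1 and the lowest for 19. The follicle homing receptor gene Cxcr5 was 4.63 to 4.998 on the 6 arrays, below the array medians, and Ighm, the heavy chain constant gene, was 6.79 to 7.58. Ighd and Fcmr were not analysed here.

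Markers of other cell types, plasma cells included, moved with the arrays as well. Wild-type replicate 3 was the lowest array for most plasmacytoid dendritic cell, neutrophil and NK cell genes, but not in every list. It was the highest for 2 of the neutrophil genes and 1 of the NK cell genes. Over all genes it was lowest in 37.8% and highest in 45.8%. The mean signal of 8 plasmacytoid dendritic cell genes was 9.18, 9.65 and 7.14 in wild type and 9.59, 10.29 and 10.16 in HDAC7 deficient. All 8 were higher in HDAC7 deficient, with a median difference of 1.41, or 0.40 without wild-type replicate 3, the lowest array for 7 of them. For 8 neutrophil genes the mean was 8.93 to 10.62 in wild type and 10.38 to 10.92 in HDAC7 deficient, with 6 higher and a median difference of 0.96, or 0.25 without that array, which was lowest for 6. For 10 NK cell genes it was 6.89 to 8.78 and 8.26 to 8.56, with 7 higher and a median of 0.76, or -0.03 without that array, which was lowest for 7. For 7 plasma cell genes it was 6.77 to 7.80 and 7.70 to 8.002, with 4 higher and a median of 0.83, or 0.09 without that array. The medians of the other lists moved less. They were 0.50 and, without that array, 0.34 for 8 T cell genes (means of 6.87 to 7.41 and 7.25 to 7.82, 6 higher), and 0.02 and 0.24 for 9 macrophage and monocyte genes (6.89 to 6.94 and 7.10 to 7.56, 5 higher). For 8 conventional dendritic cell genes they were -0.02 and -0.15 (6.73 to 7.31 and 7.12 to 7.42, 4 higher), and for 8 erythroid genes 0.11 and 0.22 (6.97 to 7.29 and 6.95 to 7.69, 5 higher). Wild-type replicate 3 was lowest for 4 and highest for 3 of the plasma cell genes, and for 3 and 1 of the T cell genes. It was lowest for 2 and highest for 3 macrophage and monocyte genes, 4 and 4 conventional dendritic cell genes, and 3 and 3 erythroid genes. Dendritic cells and macrophages also carry Cd40 and Cd37, and the part of such cells in the values of the members was not tested.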

How the data were processed

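RNA of 6 sorted pro-B samples was amplified and hybridised to Affymetrix mouse perfect-match arrays, as the labels' protocols state. The values the authors deposited, 1 per probe set and array, were taken as log2 from their range. No label or header used here names the summary or normalization method. Of 45141 probe sets 104 were controls; 28898 of the other 45037 had 1 gene symbol in the platform annotation, 551 several and 15588 none, and 28689 were matched to current symbols through Entrez numbers in RefSeq (GRCm38.p6, for names alone).

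The group comparison used limma 3.58.1 (R 4.3.3) over all 17097 genes and, for further probe sets of a member, over all 45037 probe sets, with variances moderated along an intensity trend, and two-sided p-values adjusted by Benjamini-Hochberg (threshold 0.05). Differences are HDAC7 deficient minus wild type ± SE, and levels are means ± SD. No filter was applied. The members and gene lists were chosen with earlier results of these data known. Members, Hdac7, the sorting genes and, per pathway list, the 3 genes of smallest p are named; other genes named, such as Bank1, come from the gene and marker lists and were singled out after their values were seen. Of the 25, 21, 30 and 20 genes listed for receptor signalling, BAFF and CD40, later B cells and early B cells, 22, 18, 23 and 17 were measured. The number of arrays and the spread between them limit the precision. On simulated data for these 17097 genes the fit recovered 13.4% of genes changed 2-fold, 55.2% changed 4-fold and 80.3% changed 8-fold, with 6 calls on unchanged genes. The simulated noise was drawn for each gene separately, with its pooled SD on all 6 arrays. Deviations shared by a whole array, such as those of wild-type replicate 3, were therefore not simulated. Alternatives were leaving out each array, blocks for the replicate number and for the Xist division, repeated scaling, dim gene filters, variance models, array weights and the mean over probe sets. Plots come from matplotlib 3.10.9 (Python 3.11.15).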

Additional observations from a re-analysis of the deposited data

How the results depend on the processing

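With 6 arrays, 0 genes passed in limma, also without each array in turn, while the genes at an unadjusted p under 0.05 numbered 2165, and 626 to 5801 without each array (626 without HDAC7-deficient replicate 2, 920 without wild-type replicate 1, 954 and 1291 without HDAC7-deficient replicates 1 and 3, 5801 without wild-type replicate 2). The median of the members was 0.08 to 0.32 and 5 to 7 were higher without each array. Fitting the replicate number as a block gave 1 gene past the threshold, no member, and 3515 at an unadjusted p under 0.05. Deviations of same-numbered arrays correlated at 0.10, 0.21 and 0.48, and the numbers were not taken to pair the samples. Wild-type replicate 3 correlated best with HDAC7-deficient replicate 3, at 0.48. Wild-type replicate 2 correlated best with HDAC7-deficient replicate 1 (0.36). Wild-type replicate 1 correlated about equally with HDAC7-deficient replicates 2 (0.11) and 1 (0.10). The Xist division as a block gave 7288 at that level, a median of the members of 0.24, Fcrla at 0.19, Ms4a1 at -2.02, Fcer2a at -0.52 and Cd37 at 2.31. With wild-type replicate 3 also left out 4 genes passed, no member, and Ms4a1 was 0.19 and Blk -0.37. These differences equal those within the Xist-low arrays by construction, because no wild-type array is then left on the Xist-high side. They rest on HDAC7-deficient replicate 1 alone. Leaving out the dimmest 50% of genes gave 776. Array weights gave 8452 genes past the threshold and 9614 at an unadjusted p under 0.05, with Ms4a1 at 2.33 and Fcer2a at 0.61.

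Repeated quantile normalization gave the members a median of -0.22 with 3 higher, Cd22 at -0.24 and Tnfrsf13c at -0.030. Centring on array medians, which moved the median of all genes from -0.03 to 0.10, gave Fcer2a 0.080 and Fcrla 0.10. The mean over probe sets gave Fcer2a 0.12. Without each array Ms4a1 ran from -1.88 to 1.51, Fcer2a from -0.34 to 0.45, Blk from -0.24 to 0.93 and Fcrla from -0.44 to 0.23. Within the Xist-high arrays Cd22 was -0.036 and Fcrla 0.71. Both scalings without wild-type replicate 3 were added after seeing the data: quantile normalization then gave Ms4a1 1.50, Fcer2a 0.48, Blk -0.35, Tnfrsf13c -0.058 and Cr2 0.0093, and centring gave Ms4a1 1.57, Fcer2a 0.51 and Blk -0.19. Cd72 and Cd37 stayed higher, and Cd40 lower, under all 19 alternatives run for each, some of which could not change the sign. The replicate block and the variance models leave each difference as it was, by construction. The values nearest to no difference were 0.04 for Cd37, 0.09 for Cd72 and -0.07 for Cd40. Apart from removed arrays and genes, the cause of these shifts was not tested.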
